A study of Mus musculus with 8 samples.

Results

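Claudins are the membrane proteins that form the strands of tight junctions, and 10 of them known from epithelium and endothelium are described here: Cldn1, Cldn2, Cldn3, Cldn4, Cldn5, Cldn7, Cldn8, Cldn12, Cldn15 and Cldn23. The rule names gene symbols and no measured value, though earlier results of these data were known when it was made. All 10 were found in each of 8 libraries, among 32287 listed features in the single-cell libraries of the tissues and 32285 in the other 6, and the annotation also holds 22 other claudin symbols. The libraries came from C57BL/6 mice, or, for sorting, from mice on that background that carry eGFP and an inducible Cre recombinase at the Lgr5 locus (Lgr5-eGFP-ires-CreERT2), an allele that marks intestinal stem cells. A pair of single-cell libraries held live cells of the small and of the large intestine, each enriched by sorting for LGR5+ stem cells and for CD31+ PDPN+ LYVE1+ lymphatic endothelial cells. Another pair came from small intestinal organoids at passage 1, pooled from 16 wells and sorted to 100000 epithelial cells per culture, from control cultures and from cultures grown with partner cells that the labels do not name. The last 4 were Visium libraries, which count RNA on spots under a 10 µm section, with 2 technical duplicate sections of each tissue. No group therefore had a biological replicate, no test between groups was made, and each interval below is a 95% interval that covers counting error only.

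Each claudin has extracellular loops that meet those of the neighbouring cell, and the mix of claudins in a junction sets which ions and how much water pass between cells. Cldn2 and Cldn15 form channels through the junction that let small cations, above all sodium, pass, and Cldn15 is needed for the return of sodium to the lumen on which nutrient uptake in the small intestine depends. Cldn1, Cldn3, Cldn4 and Cldn8 are counted among the sealing claudins, Cldn7 is also abundant along the basolateral membrane, and Cldn5 is the main claudin of endothelium, best known from the blood-brain barrier.

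In mouse genome build GRCm38.p6 (the same build as mm10) the members lie on 5 chromosomes. Cldn4 (ENSMUSG00000047501, chr5:134945123-134946934) and Cldn3 (ENSMUSG00000070473, chr5:134986214-134987476) are neighbours 39280 bases apart with 0 annotated genes between them. The same chromosome holds Cldn12 (ENSMUSG00000046798, chr5:5505015-5514976) and Cldn15 (ENSMUSG00000001739, chr5:136967869-136975845). Chromosome 16 holds Cldn5 (ENSMUSG00000041378, chr16:18776847-18778262), Cldn1 (ENSMUSG00000022512, chr16:26356645-26371839) and Cldn8 (ENSMUSG00000050520, chr16:88560826-88563183). The others are Cldn2 (ENSMUSG00000047230, chrX:139800808-139811386), Cldn7 (ENSMUSG00000018569, chr11:69964779-69967886) and Cldn23 (ENSMUSG00000055976, chr8:35824709-35826559).

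The promoters of 4 members are shown because their RNA followed the patterns that the rest of the text turns on: Cldn2 and Cldn15, the channel formers, whose order over classes differed, Cldn4, high at the surface, and Cldn5, high in endothelium. Each line gives the 250 bases upstream of the annotated start on the gene's own strand, from RefSeq on GRCm38.p6, with motif matches in capitals.
Cldn2: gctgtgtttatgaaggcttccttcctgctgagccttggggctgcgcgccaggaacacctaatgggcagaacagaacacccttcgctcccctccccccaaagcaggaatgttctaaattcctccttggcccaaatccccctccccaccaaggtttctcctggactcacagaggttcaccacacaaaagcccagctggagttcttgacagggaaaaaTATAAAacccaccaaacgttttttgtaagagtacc
Cldn15: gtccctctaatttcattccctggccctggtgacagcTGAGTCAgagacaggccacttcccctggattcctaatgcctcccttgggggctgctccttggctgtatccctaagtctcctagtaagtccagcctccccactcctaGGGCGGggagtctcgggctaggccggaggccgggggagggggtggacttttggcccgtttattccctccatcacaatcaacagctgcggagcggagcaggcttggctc
Cldn4: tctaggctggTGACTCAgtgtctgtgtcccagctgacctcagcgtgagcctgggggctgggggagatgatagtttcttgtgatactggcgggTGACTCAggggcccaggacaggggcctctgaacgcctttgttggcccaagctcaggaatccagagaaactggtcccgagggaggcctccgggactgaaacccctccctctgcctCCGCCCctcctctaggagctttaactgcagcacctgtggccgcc
Cldn5: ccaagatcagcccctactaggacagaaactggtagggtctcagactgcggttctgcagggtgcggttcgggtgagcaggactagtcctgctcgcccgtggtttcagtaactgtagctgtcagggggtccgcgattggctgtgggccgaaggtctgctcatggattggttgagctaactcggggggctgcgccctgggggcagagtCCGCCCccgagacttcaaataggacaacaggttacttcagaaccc
They lie at chrX:139800558-139800807 (forward strand, Cldn2), chr5:136967619-136967868 (forward, Cldn15), chr5:134946935-134947184 (reverse, Cldn4) and chr16:18776597-18776846 (forward, Cldn5). A TATA box (TATAAA) began 35 bases before the start of Cldn2, and was found in 12.4% of all 32851 promoter windows of this length. An AP-1 motif (TGANTCA, in 6.75% of windows) stood 214 bases before the start of Cldn15, and 2 of them stood 240 and 158 bases before the start of Cldn4. An Sp1 motif (GGGCGG, in 32.7% of windows) stood 108 bases before the start of Cldn15, 44 before that of Cldn4 and 45 before that of Cldn5. All motifs were searched on both strands. The Cdx motif, spelled TTTATNG, is in 9.81% of windows and had no match in these 4. For the TCF motif of the Wnt pathway, spelled CTTTGAT and in 3.21% of windows, no match was found either. Neither the letters searched for GATA factors (AGATAA, in 9.99% of windows) nor those searched for SOX factors, spelled AACAAT and in 9.42% of windows, were found. A match is a run of letters and no evidence of binding.

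The libraries held 46236011 UMIs (unique molecular identifiers, counts of single RNA molecules) in the control organoids, 100452728 in the cocultured organoids, 78482770 and 142501907 in the cells of small and large intestine, and from 24356162 to 43833127 in the 4 sections. In the small intestinal cell library 5497 of 8842 barcodes were above the mitochondrial limit of 20%, against 2060 of 8646 in the large intestinal one, and 2695 and 5882 cells were kept. In the control organoids 211 of 818 barcodes were above that limit, against 176 of 1233 in the cocultured ones. The median depth of all barcodes was 37750 UMIs in the control and 79354 UMIs in the cocultured library. The single-cell libraries of the 2 tissues shared 25 barcodes and those of the organoids 0. Clusters were made without the claudins and other tight junction genes and named as "like" a cell type from marker genes. In the small intestine 1 epithelial cluster of 300 cells stayed unnamed, as did 6 epithelial clusters of the large intestine that hold 2209 cells, and they enter the class values below only where this is said. Levels are CPM, the UMIs of a gene per 1000000 UMIs of the cells or spots summed, and are compared within a gene.

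Across the classes of both tissues, Cldn3 and Cldn7 were present in all epithelial classes, and Cldn5 was found mainly in the endothelial classes. The channel former Cldn2 was highest in stem-like or cycling-like cells and Cldn15 in enterocyte-like cells of the small and stem-like cells of the large intestine. Cldn4 was highest in enteroendocrine-like cells, and Cldn8 and Cldn23 both in colonocyte-like cells. Cldn3 was lowest in the Paneth-like class of the small intestine (93.5 CPM) and highest in tuft-like (976 CPM) and enterocyte-like cells (906 CPM), whose intervals overlapped. In the large intestine Cldn3 ran from 427 CPM in stem-like to 1012 CPM in colonocyte-like cells. Cldn7 was likewise highest in the absorptive cells, at 1704 CPM in enterocyte-like and 1778 CPM in colonocyte-like cells, and lay at 819 and 1018 CPM in the stem-like cells of small and large intestine. The low levels in Paneth-like cells stood beside a share of 59.5% of that class's UMIs taken by alpha-defensins and Lyz1, against at most 2.89% in the other small intestinal classes, and the part of this in the low CPM was not tested. All 9 non-epithelial classes of the large intestine also had Cldn7 UMIs, at 39.1 to 77.4 CPM. After thinning every cell to 2000 UMIs, 7.72% of small intestinal lymphatic endothelial-like cells (median depth 3370 UMIs) and 9.52% of B cell-like cells (median depth 2802 UMIs) had a Cldn7 UMI, against 95.3% of enterocyte-like cells (median depth 21868 UMIs). The low shares, in classes that should lack the gene, are taken as the level under which a share is not read as expression, and their source was not tested.

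The channel former Cldn2 was highest in the proliferative classes. In the small intestine it was 126 CPM in stem-like, 94.4 CPM in cycling-like and 56.2 CPM in enterocyte-like cells, 3 neighbours in the order whose intervals did not overlap. In the large intestine it was 191 CPM in cycling-like and 185 CPM in stem-like cells, with overlapping intervals, then 83.8 CPM in goblet-like and 40.5 CPM in colonocyte-like cells. Both tissues thus had more Cldn2 in stem-like than in absorptive cells, with log2 ratios of 1.17 (0.94 to 1.41) in the small and 2.19 (2.02 to 2.35) in the large intestine. Among clusters of the large intestine, an unnamed epithelial cluster of 387 cells led by Ido1 and Mmp7 had the highest level, 318 CPM. In tuft-like cells of the small intestine 1 Cldn2 UMI was counted, or 0.63 CPM.

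The other channel former, Cldn15, had another order in each tissue. In the small intestine it was highest in enterocyte-like cells at 295 CPM (279 to 311), then 224 CPM in goblet-like, 207 CPM in cycling-like and 154 CPM in stem-like cells. In the large intestine it was highest in stem-like cells at 202 CPM (193 to 211), then 168 CPM in cycling-like and 158 CPM in goblet-like cells, and only 34.7 CPM (31.0 to 38.7) in colonocyte-like cells. Stem-like over absorptive cells gave a log2 ratio of -0.94 (-1.09 to -0.78) in the small intestine and of 2.54 (2.37 to 2.72) in the large intestine. Within the small intestine the enterocyte-like cluster led by Cyp2b10, Leap2 and Fabp1 (61 cells) had 364 CPM of Cldn15 and 4.22 CPM of Cldn2. The enterocyte-like cluster led by Clca4a and Fabp6 (132 cells) had 243 CPM of Cldn15 and 95.4 CPM of Cldn2.

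Cldn4, a sealing claudin, was highest in enteroendocrine-like cells of both tissues, with 143 CPM (110 to 183) in the small and 120 CPM (97.7 to 147) in the large intestine. Goblet-like cells came next, at 84.9 CPM in the small and 10.8 CPM in the large intestine, and within the small intestine a goblet-like cluster of 65 cells led by Ido1 and Zg16 reached 351 CPM. Stem-like cells had 12.7 CPM in the small and 0.996 CPM in the large intestine. After thinning, 33.3% of enteroendocrine-like and 18.7% of goblet-like cells of the small intestine had a Cldn4 UMI, against 0.366% of B cell-like cells. Among non-epithelial classes the small intestinal lymphatic endothelial-like cells stood out, with 20.2 CPM from 25 UMIs and a thinned share of 2.70%.

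Cldn23, whose role is less studied, and Cldn8, which limits sodium leak in the distal colon, were highest in absorptive cells of the large intestine. Cldn23 was 57.4 CPM in colonocyte-like cells and 34.2 CPM in enterocyte-like cells, against 4.43 and 8.16 CPM in the stem-like cells of the same tissues. Cldn8 was 132 CPM in colonocyte-like cells and 12.5 CPM in goblet-like, 10.5 CPM in cycling-like and 9.74 CPM in stem-like cells of the large intestine, while the highest small intestinal class, the stem-like cells, had 6.53 CPM from 20 UMIs. The colonocyte-like clusters divided these genes. The cluster led by Ly6g and Tgm3 (219 cells) had 182 CPM of Cldn8 and 17.5 CPM of Cldn23, and the cluster led by Tmigd1 and Sptssb (134 cells) had 50.4 CPM of Cldn8 and 122 CPM of Cldn23. Thinned to equal depth, 22.7% of colonocyte-like cells (72 of 317) had a Cldn8 UMI, 1.89% of stem-like cells of the same tissue and 0.357% of fibroblast-like cells.

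Cldn12, unusual among claudins in lacking the usual anchor for tight junction scaffold proteins, varied within a narrow range among epithelial classes of the large intestine. There it ran from 10.6 CPM in tuft-like and stem-like cells to 16.5 CPM in colonocyte-like cells, and most neighbours in the order had overlapping intervals. In the small intestine it was 20.9 CPM in stem-like and 7.93 CPM in enterocyte-like cells, a log2 ratio of 1.40 (0.78 to 2.04), while in the large intestine the ratio of stem-like over colonocyte-like cells was -0.64 (-1.02 to -0.26). Cldn1, the claudin of the skin barrier, was close to undetected. It had 0 UMIs in the stem-like, cycling-like and goblet-like cells of both tissues, which in the cycling-like cells allows up to 0.266 CPM in the small and 0.0924 CPM in the large intestine. Its highest class was the dendritic-like cells of the large intestine, with 9 UMIs (27.5 CPM, 12.6 to 52.2), and the fibroblast-like cells of that tissue had 15 UMIs (6.56 CPM).

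**Figure D1:**
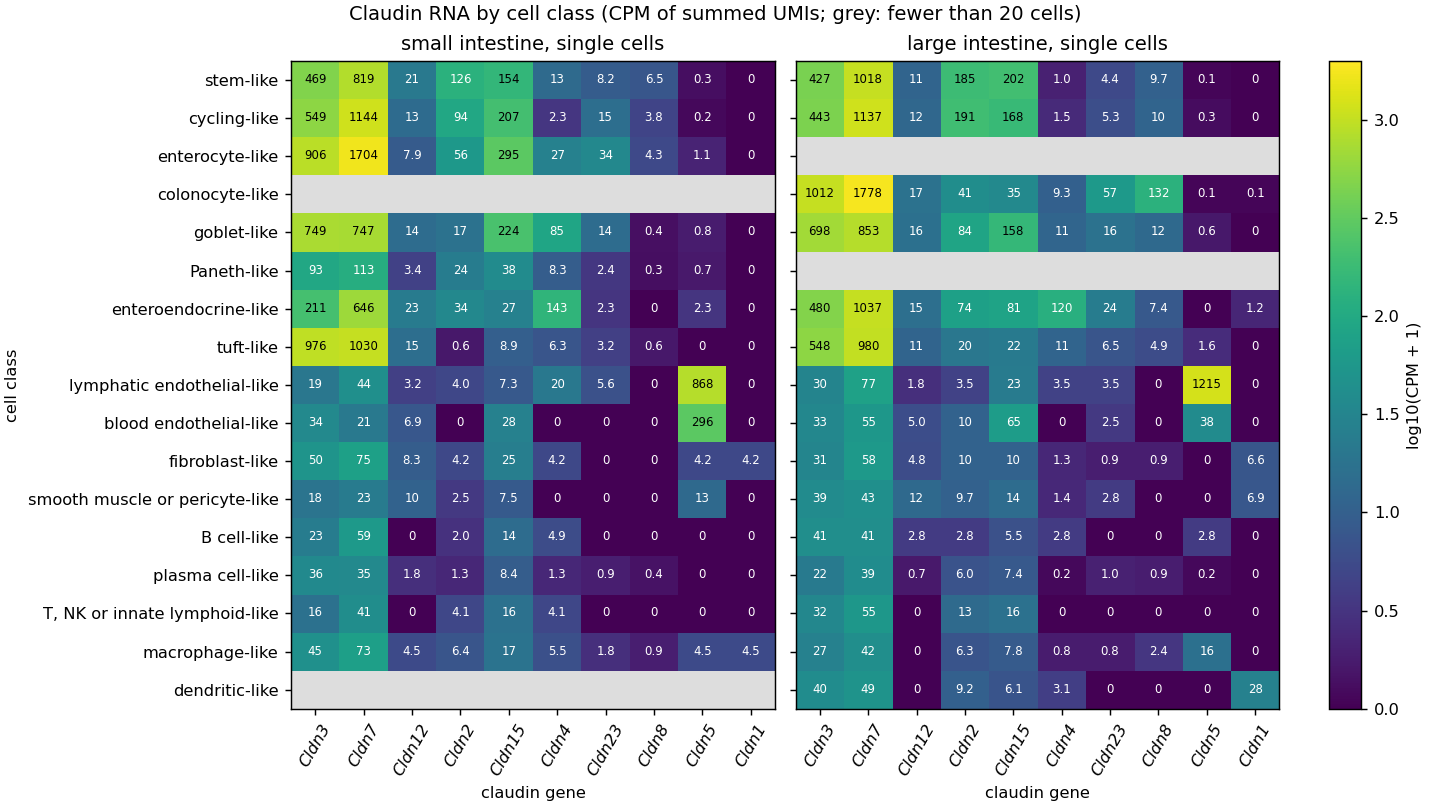
Claudin RNA by cell class in the small (left) and large intestine (right), 1 library each. Columns are genes, lines are classes named from markers, each cell prints the CPM of the summed UMIs, colour is log10(CPM + 1), and grey marks classes with fewer than 20 cells. Cldn3 and Cldn7 fill the epithelial lines, Cldn5 the lymphatic endothelial line (868 and 1215 CPM), and Cldn8 stands out in the colonocyte-like line (132 CPM).

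In pooled epithelial against pooled endothelial cells, Cldn5 was the member higher in endothelium and most others were higher in epithelium. In the small intestine (1265 epithelial and 388 endothelial cells) Cldn5 was 0.541 CPM in epithelial and 808 CPM in endothelial cells, a log2 ratio of -10.54 (-11.28 to -9.89). In the large intestine (2184 and 294 cells) it was 0.312 and 730 CPM, a ratio of -11.19 (-11.91 to -10.55). With at least 50 UMIs over both groups a member could be compared, and a log2 ratio of 1 or more in size was counted. By that rule 6 of 9 members of the small intestine were higher in epithelium and 1 in endothelium, where 18.3% and 33.0% of all compared genes were. In the large intestine 7 of 9 were higher in epithelium and 1 in endothelium, where 17.3% and 31.5% of all compared genes were. The median of the members was 1.59 and 2.26, and that of all compared genes -0.42 and -0.36.

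The genes of all epithelial classes and Cldn2 were higher in epithelium in both tissues, in all 9 alternatives, by an amount that moved with the cell filter. Their lowest log2 ratios, with doublets kept or with the looser filter, were 2.76 for Cldn2, 3.10 for Cldn3 and 3.29 for Cldn7 in the small intestine, and 2.77 for both Cldn3 and Cldn7 in the large intestine. With the reported filter, Cldn3 had 513 CPM in epithelium and 20.9 CPM in endothelium of the small intestine, a log2 ratio of 4.61 (4.09 to 5.19), and 4.20 (3.69 to 4.77) in the large intestine. Cldn7 gave 4.36 (3.99 to 4.77) and 4.08 (3.74 to 4.45), and Cldn2 3.99 (2.77 to 5.62) and 4.55 (3.42 to 5.99). The endothelial levels of these genes lay at or near those of the other non-epithelial classes, such as 23.5 CPM of Cldn3 in B cell-like cells of the small intestine and 41.3 CPM in those of the large intestine. Cldn2 in the large intestine rested on 6 endothelial UMIs and was 1.59 when doublets were kept. Cldn15 was 4.10 (3.33 to 5.01) in the small, or 2.81 with the looser filter, and 1.88 (1.42 to 2.37) in the large intestine, where 39 UMIs (40.4 CPM) were counted in endothelial cells.

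Members with few endothelial UMIs were less certain. Cldn12 gave 1.59 (0.36 to 3.22) in the small intestine from 5 endothelial UMIs and 2.05 (0.50 to 4.33) in the large from 3. Cldn23 gave 1.31 (0.25 to 2.63) from 7 UMIs and 2.26 (0.71 to 4.54) from 3. Cldn8 had 0 endothelial UMIs in either tissue. With that count set to the floor of 3 UMIs, its log2 ratio was 3.17 in the large intestine. Cldn4 was 22.2 CPM in epithelial and 18.1 CPM in endothelial cells of the small intestine, a ratio of 0.30 (-0.27 to 0.94). Within the large intestine, with 2 endothelial UMIs, the interval of the Cldn4 ratio ran from -0.36 to 4.55. The Cldn4 value was under the threshold with the count set to that floor (0.92), and past it as the mean over cells of each cell's CPM (1.93 in the small and 2.07 in the large intestine), with doublets kept (1.71, large intestine) and with a looser cell filter (1.86, large intestine).

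Cldn5 was higher in lymphatic than in blood endothelial-like cells of both tissues. Within the small intestine it was 868 CPM (817 to 921, from 1075 UMIs in 349 cells) in the lymphatic and 296 CPM (214 to 399, from 43 UMIs in 39 cells) in the blood endothelial-like class. Within the large intestine it was 1215 CPM (1126 to 1309, from 691 UMIs in 207 cells) and 37.7 CPM (21.1 to 62.2, from 15 UMIs in 87 cells). The blood endothelial values leaned on few cells, since 1 cell held 27.9% of those UMIs in the small and 53.3% in the large intestine. The log2 ratio of lymphatic over blood was 1.55 (1.11 to 2.03) in the small and 5.01 (4.28 to 5.86) in the large intestine. After thinning, 75.7% (196 of 259) and 84.5% (98 of 116) of lymphatic endothelial-like cells had a Cldn5 UMI, against 16.7% (5 of 30) and 2.78% (2 of 72) of the blood endothelial-like ones and 0.526% of enterocyte-like cells. Within the lymphatic class of the small intestine, the cluster led by Ccl21a, Mmrn1 and Lyve1 (267 cells) had 924 CPM of Cldn5, and a shallower cluster led by Sema3d (82 cells, median 1288 UMIs) had 333 CPM.

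Of the members compared between the endothelial classes, 2 of 2 (Cldn5 and Cldn7) were higher in the lymphatic class of the small intestine, where 19.1% of all compared genes were, and 1 of 2 (Cldn5) in the large intestine, where 11.6% were. The Cldn7 ratio in the small intestine, 1.08 (-0.55 to 3.40), rested on 3 UMIs in blood endothelial-like cells. The thinned share of lymphatic endothelial-like cells with a Cldn7 UMI was under that of B cell-like cells, given above as a level not read as expression. Of the pair, only Cldn5 is therefore read as higher in the lymphatic class. Between tissues, Cldn5 in the lymphatic class differed by -0.49 (-0.63 to -0.35) for small over large intestine, under the threshold. In the blood endothelial-like class it differed by 2.97 (2.10 to 3.93), the only member compared there, where 4.13% of all compared genes were as much higher in the small intestine. Of the wider list of tight junction genes described next, 1 of 12 compared genes was higher in the lymphatic and 2 in the blood endothelial-like class of the small intestine, where 7.13% of all compared genes were higher in the blood class. The gene higher in the lymphatic class was the polarity protein Pard3, with 64 UMIs against 0. Its log2 ratio was 1.32 with the 0 set to the floor of 3 UMIs, which is not a lower limit. Those higher in the blood class were the adhesion molecules Jam2, by 7.68 on that scale with 0 lymphatic UMIs set to 3, and Esam (-8.23). For the large intestine 1 of 10 was higher in the lymphatic class (Magi3, 1.38) and 3 in the blood class, where 11.1% were. These were Jam2 (by 5.75, with 0 lymphatic UMIs set to 3), Jam3 (-3.88) and Esam (-5.10).

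The wider tight junction list (24 genes found, among them scaffolds, occludin and its relatives and the JAM adhesion molecules) had members on both sides. Within the small intestine 10 of 22 compared genes were higher in epithelium and 10 in endothelium, where 18.3% and 33.0% of all compared genes were. The large intestinal counts were 9 and 10 of 23, where 17.3% and 31.5% were. The highest in epithelium of the small intestine were Ocln (4.25, with 2 endothelial UMIs set to the floor of 3), Marveld3 (4.23, with 0 set to 3) and the scaffold Cgn (3.83). The lowest were Mpdz (-9.31, with 1 epithelial UMI set to 3), Jam2 (-8.51) and Amotl1 (-6.88). Within the large intestine the highest were Marveld3 (4.41, with 1 endothelial UMI set to 3), Lsr (3.83) and Crb3 (3.82). The lowest there were Jam2 (-10.29), Jam3 (-9.44) and Mpdz (-9.44).

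Between the tissues, Cldn8 was higher in the large intestine and Cldn4 in the small intestine, in cells and in sections alike. In whole sections Cldn8 was 3.41 and 1.495 CPM in the small intestine and 113 and 108 CPM in the large intestine, a log2 ratio of -5.49 for the mean of 2 sections over the mean of 2. Cldn4 was 62.7 and 96.3 CPM in small intestinal and 15.3 and 20.9 CPM in large intestinal sections, a ratio of 2.14. Cldn15 was 262 and 296 CPM against 73.2 and 68.4 CPM, a ratio of 1.98. These were the members whose nearest sections of the 2 tissues lay at least 2-fold apart, 2 of 10 higher in the small and 1 in the large intestine, where 10.8% and 10.2% of all compared genes were. In spots, fewer cells of a type and less RNA per cell cannot be told apart.

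The other members differed less between sections. Cldn2 was 102 and 90.4 CPM in small intestinal and 57.6 and 58.4 CPM in large intestinal sections (0.73), and Cldn7 1517 and 1665 against 919 and 1042 CPM (0.70). Cldn3 was 351 and 339 CPM in small intestinal and 634 and 650 CPM in large intestinal sections (-0.90), and Cldn12 25.5 and 24.3 against 33.0 and 32.6 CPM (-0.40). For Cldn2, Cldn7, Cldn3 and Cldn12 each section of a tissue lay on the same side of both sections of the other, and each ratio was under 2-fold. Cldn23 was 40.2 and 48.7 CPM in small intestinal and 47.9 and 50.1 CPM in large intestinal sections, and here the sections overlapped. Cldn5 was 6.61 and 6.18 against 6.01 and 6.02 CPM, close to equal, and Cldn1 0.493 and 0.565 against 1.07 and 0.844 CPM. Of the wider list, Ildr1, a receptor of junctions where 3 cells meet, was the furthest apart, at 10.3 and 11.2 CPM in small intestinal and 150 and 142 CPM in large intestinal sections.

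**Figure D2:**
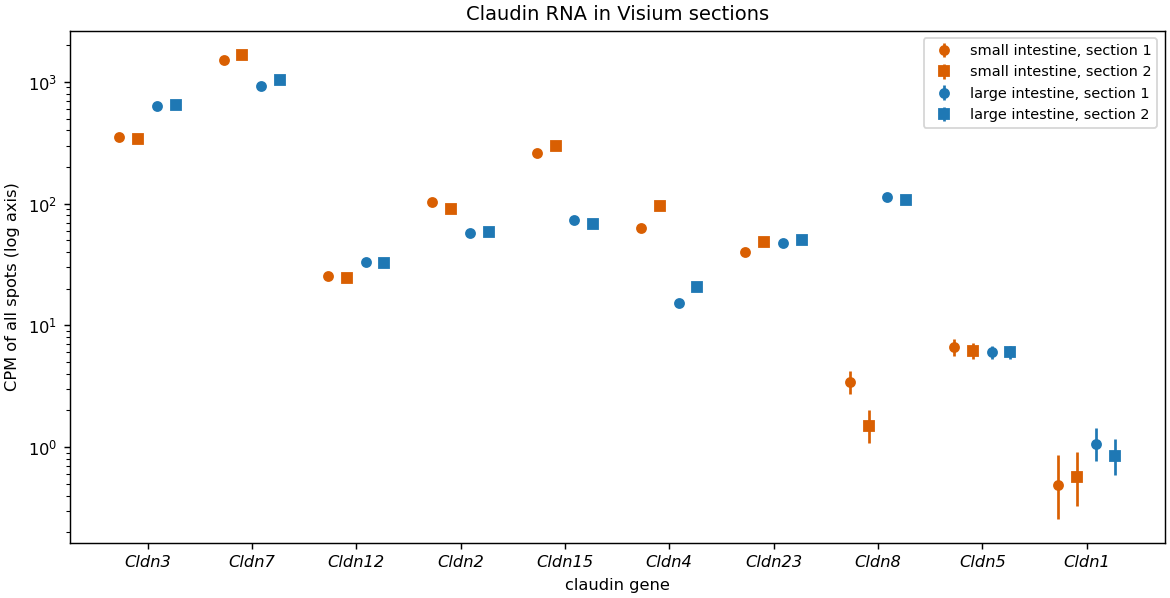
Levels of the 10 claudins in the 4 Visium sections (CPM over all spots on a log axis; orange, small intestine; blue, large intestine; circle and square, section 1 and 2; bars, 95% Poisson interval). Cldn8 (3.41 and 1.495 against 113 and 108 CPM), Cldn4 and Cldn15 are the genes with the widest gap between the colours.

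In pooled epithelial cells the same contrast gave 1 of 8 members higher in the small and 2 higher in the large intestine, where 7.34% and 12.0% of all compared genes were. Cldn4 was 22.2 CPM in small intestinal and 5.87 CPM in large intestinal cells (log2 ratio 1.92, 1.74 to 2.10). Cldn8 was 2.51 and 28.0 CPM (-3.48, -3.81 to -3.17), and Cldn2 57.5 and 145 CPM (-1.33, -1.40 to -1.26). Cldn2 was therefore higher in the large intestine among sorted cells and higher in the small intestine among sections. Cldn15 was 161 and 148 CPM (0.12, 0.07 to 0.17), and the ratios of Cldn3 (-0.15), Cldn7 (-0.45), Cldn12 (-0.24) and Cldn23 (-0.25) were also under the threshold. The median of all compared genes was -0.29, and the signs of Cldn3, Cldn12 and Cldn23 turned under scaling by the median of ratios, to 0.10, 0.01 and 0.01. Over 11 alternatives, Cldn3 kept its sign in 5 (-0.29 to 0.25) and Cldn23 in 4 (-0.66 to 1.26), so neither had a settled direction. Cldn12 kept its sign in 9 of 11, and Cldn7 and Cldn15 in 10 each, turning to 0.05 with a gate per cell and to -0.01 without mitochondrial and ribosomal protein genes. The small intestinal pool included 203 Paneth-like cells and the large intestinal pool none. With clusters at resolution 0.5 the Cldn23 ratio was 1.26.

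Within classes the tissue difference depended on the class. For Cldn15 it was 3.09 (2.91 to 3.27) for enterocyte-like over colonocyte-like cells (295 against 34.7 CPM), 0.50 in goblet-like, 0.30 in cycling-like, -0.39 in stem-like and -1.56 in enteroendocrine-like cells. Cldn2 was 0.47 in absorptive, -0.55 in stem-like, -1.02 in cycling-like, -1.13 in enteroendocrine-like and -2.32 (-2.65 to -2.002) in goblet-like cells. Cldn8 was lower in the small intestine in absorptive (-4.93, -5.67 to -4.29) and cycling-like cells (-1.46), and in goblet-like cells, where 2 UMIs were counted, its interval was -8.09 to -3.15. In stem-like cells the Cldn8 interval, -1.36 to 0.14, included 0. Cldn4 was higher in the small intestine in goblet-like (2.98, 2.69 to 3.28) and absorptive cells (1.55, 1.14 to 1.97), and not in enteroendocrine-like cells (0.25, -0.23 to 0.72).

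Counted over members, 2 of 8 were higher in enterocyte-like and 2 in colonocyte-like cells (Cldn8 and Cldn12), where 10.7% and 17.9% of all compared genes were. In goblet-like cells 1 was higher in the small and 2 in the large intestine, where 4.77% and 8.78% were. In cycling-like cells 1 of 8 was higher in the small intestine (Cldn23, 1.47, 1.15 to 1.78) and 2 in the large, where 6.48% and 10.2% were. In enteroendocrine-like cells 3 of 5 (Cldn2, Cldn3 and Cldn15) were higher in the large intestine, where 9.05% were. In stem-like cells 0 of 7 passed in either direction, where 13.9% did. Cldn4 was not among these 7, since its stem-like UMIs over both tissues were under 50. Its stem-like level, given above, was higher in the small intestine. Cldn3 and Cldn7 in the tuft-like class gave 0.83 and 0.07. The widest gap of the wider list was again Ildr1, at 0.91 CPM in enterocyte-like and 146 CPM in colonocyte-like cells.

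**Figure D3:**
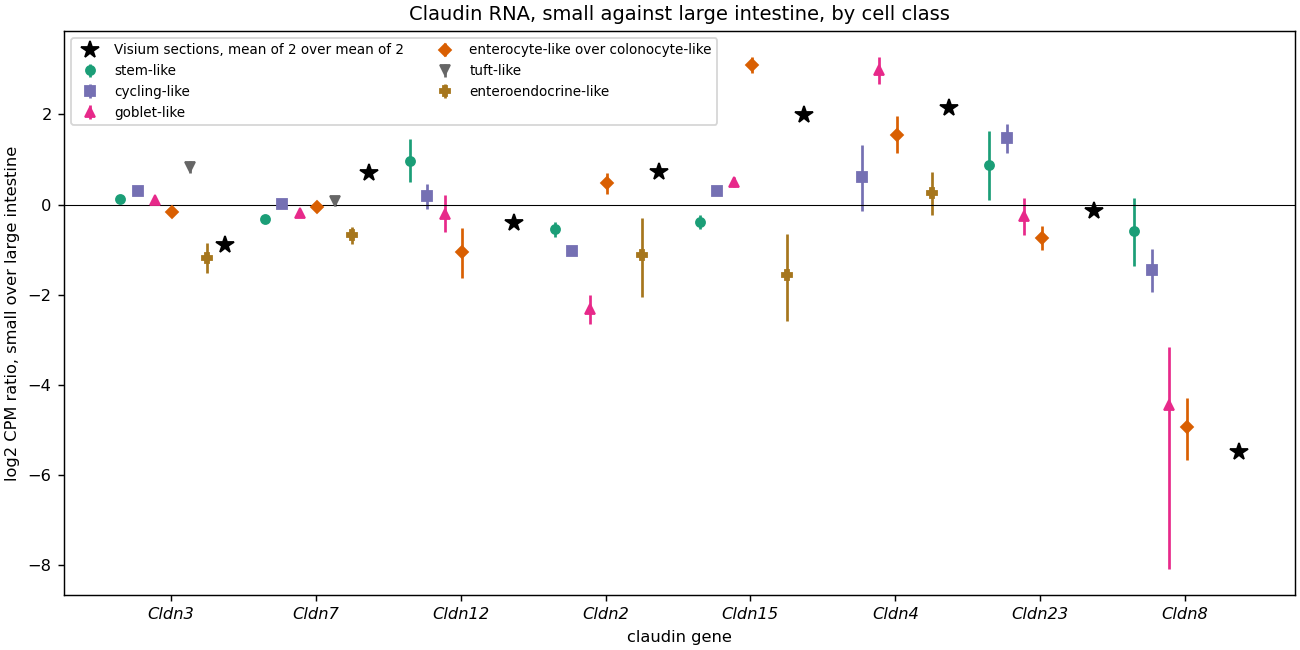
Log2 ratio of small over large intestine for 8 claudins, by cell class (coloured symbols, 1 library per tissue, bars 95% counting interval) and in whole sections (star, mean of 2 over mean of 2). Cldn15 runs from 3.09 in absorptive to -1.56 in enteroendocrine-like cells, and the Cldn2 star (0.73) lies above its cycling-like (-1.02) and goblet-like (-2.32) values.

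In the sections, Cldn2 was higher in crypt than in surface spots and Cldn4 higher in surface spots, in both tissues. Spots at or above the median epithelial share were ranked by crypt minus surface genes, and the highest and lowest of 3 equal parts were compared within each section. In section 1 and 2 of the small intestine Cldn2 was 167 and 182 CPM in crypt and 64.1 and 50.7 CPM in surface spots, log2 ratios of 1.38 and 1.85. Within the large intestine Cldn2 was 28.2 and 27.2 CPM against 10.99 and 12.0 CPM, ratios of 1.36 and 1.18. Cldn4 was 20.9 and 31.6 CPM in crypt and 173 and 286 CPM in surface spots of the small intestine (-3.05 and -3.18), and 2.74 and 6.35 against 50.1 and 56.0 CPM in the large intestine (-4.19 and -3.14). Over 5 equal steps of the ranked spots Cldn4 went from 189 and 366 CPM at the surface end to 12.1 and 26.2 CPM at the crypt end of the small intestine, and was lower in every step.

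Cldn15 was higher in crypt spots of both tissues. It was 378 and 483 CPM in crypt against 216 and 245 CPM in surface spots of the small intestine (0.81 and 0.98), and 58.9 and 58.8 against 19.4 and 18.9 CPM in the large intestine (1.60 and 1.64). The small intestinal direction was opposite to that of the sorted cells, where stem-like cells had less Cldn15 than enterocyte-like cells. Cldn23 fell from 127 and 128 CPM in surface to 21.4 and 24.6 CPM in crypt spots of the large intestine (-2.57 and -2.38), with 71.3 and 88.0 against 39.2 and 49.1 CPM in the small intestine (-0.86 and -0.84). Cldn8 had few UMIs in the small intestine, 30 against 13 in section 1 and 19 against 5 in section 2, for ratios of 1.58 and 2.34. Within the large intestine Cldn8 was 144 and 146 CPM in crypt and 178 and 169 CPM in surface spots (-0.31 and -0.21).

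By the rule of 2-fold in both sections, 2 of 8 members were higher in crypt and 1 in surface spots of the small intestine, where 21.9% and 4.20% of all compared genes were. For the large intestine 2 of 9 were higher in crypt and 2 in surface spots, where 13.2% and 5.02% were. The median of all compared genes was 0.52 in the small and 0.41 in the large intestine, and that of the members 0.35 and -0.26. Cldn12 was 0.98 and 1.19 in the small and 0.48 and 0.54 in the large intestine, Cldn3 -0.14 and -0.24 against -0.78 and -0.79, and Cldn7 -0.49 and -0.43 against -0.37 and -0.35. All of the wider list's called genes were lower in crypt spots: Pard6b, a cell polarity protein, at -1.54 and -1.62 in the small and -2.05 and -2.04 in the large intestine, with Ocln (-1.19 and -1.21) and the scaffold Tjp1 (-1.09 and -1.20) in the large intestine.

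Several values bear on these spots. The 5 muscle genes were also higher in crypt spots, by 0.52 to 0.70 in the small and 0.78 to 1.62 on the log2 scale in the large intestine, and their part in the claudin values was not tested. Of the 6 pan-epithelial genes, some moved as far as several claudins in the small intestine: Krt19 was 1.05 and 1.33, Krt18 0.85 and 1.11, Epcam -0.60 and -0.76 and Vil1 -1.17 and -1.05. Large intestinal values of the 6 ran from -0.92 (Vil1) to 0.43 (Krt19). For the large intestine the level of Cldn2 in all spots, 57.6 and 58.4 CPM, was above that of the crypt-most of 5 steps, 30.2 and 28.4 CPM, and the spots richest in muscle genes (1 in 5) had 54.5 and 69.4 CPM. With all spots ranked, the mean Cldn2 ratio was 0.70 in the small and 3.05 in the large intestine, against 1.61 and 1.27, and that of Cldn15 0.28 in the small and 2.45 in the large intestine, against 0.90 and 1.62. In thinned spots the small intestinal Cldn15 ratio was 1.01, past the threshold. Within the small intestine Cldn8 gave 0.93 with all spots ranked and 0.21 in spots thinned to 2000 UMIs, against 1.96. For the large intestine Cldn8 gave -1.82 with all spots ranked, and Cldn4 and Cldn23 gave -1.72 and -1.22 when thinned. Lgr5, Olfm4 and Gkn3 were at or near 0 CPM in the large intestinal spots (at most 0.57), so the crypt rank rested there on the other genes of its list.

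**Figure D4:**
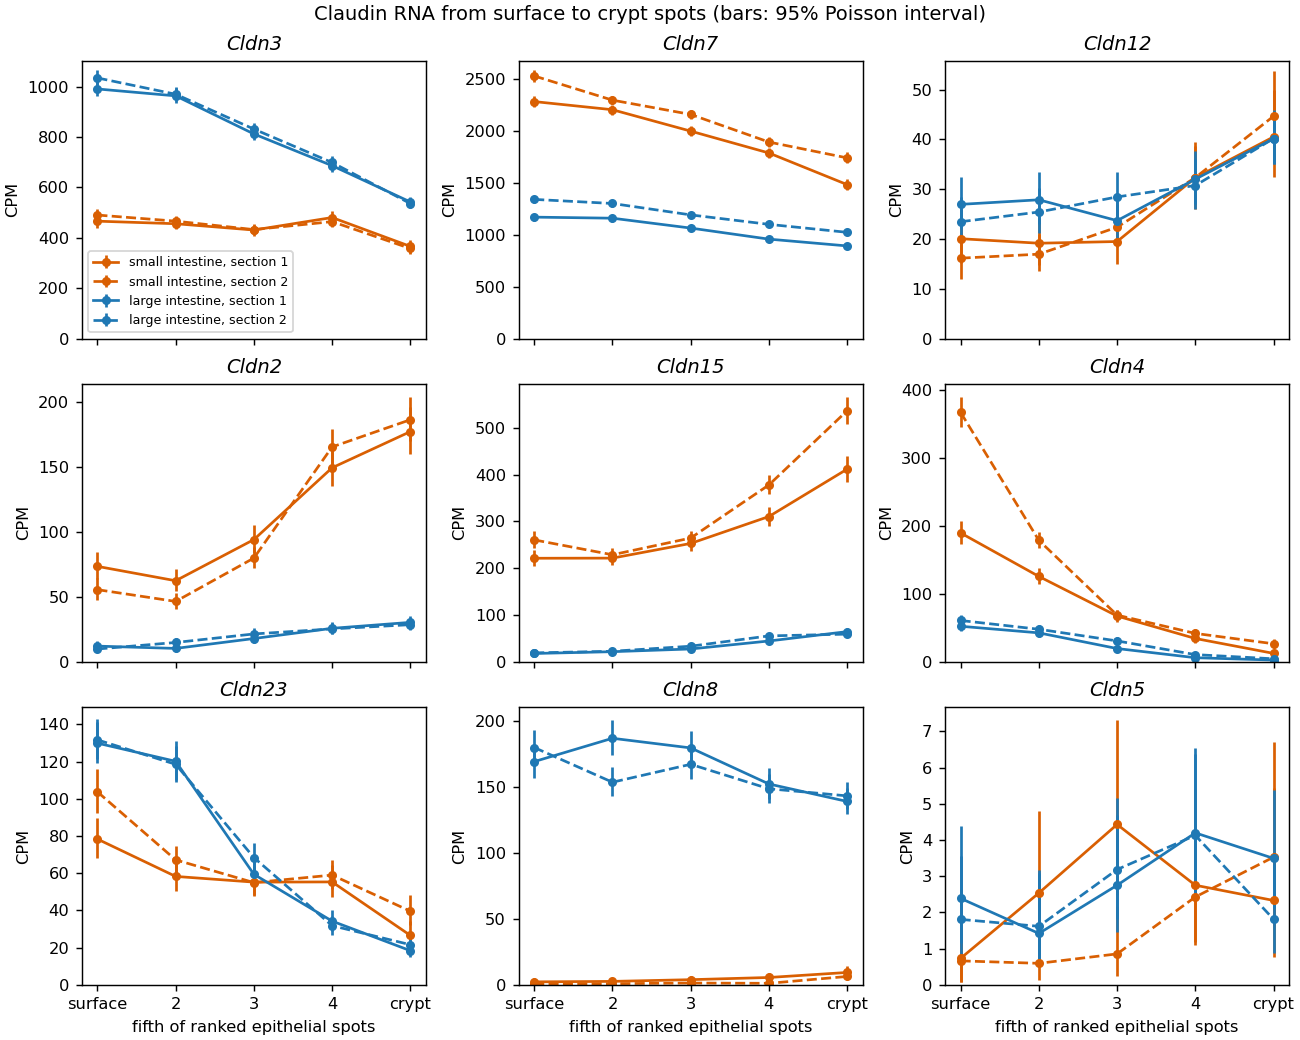
Levels of 9 claudins over 5 equal steps of ranked epithelial spots, from surface-most to crypt-most (CPM, orange small and blue large intestine, solid section 1 and dashed section 2, bars 95% Poisson interval). Cldn4 falls from 189 and 366 CPM to 12.1 and 26.2 CPM in the small intestine, and Cldn23 from 130 and 132 CPM to 18.3 and 21.5 CPM in the large intestine.

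Stem-like over absorptive cells gave the same direction as crypt over surface spots for Cldn2, Cldn3, Cldn4, Cldn7 and Cldn23 in both tissues. The opposite direction was seen for Cldn15 in the small intestine, above, and for Cldn12 in the large intestine, at -0.64 in cells and 0.48 and 0.54 in spots. Within the small intestine 2 of 7 members were higher in stem-like cells (Cldn2 and Cldn12) and 3 in enterocyte-like cells (Cldn4, -1.11, Cldn7, -1.06, and Cldn23, -2.07), where 31.7% and 16.8% of all compared genes were. For the large intestine 2 of 8 were higher in stem-like cells (Cldn2 and Cldn15) and 4 in colonocyte-like cells (Cldn3, -1.24, Cldn4, -3.23, Cldn8, -3.76, and Cldn23, -3.70), where 23.0% and 14.5% were. The mean number of members detected per cell at 2000 UMIs was 2.03 and 2.05 in the stem-like cells of small and large intestine and 2.25 and 2.26 in enterocyte-like and colonocyte-like cells. Lymphatic endothelial-like cells had 0.92 and 1.03.

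Cldn5 was higher in spots with endothelial genes, beyond counting error in 3 of the 4 sections. Among spots thinned to 2000 UMIs, those with a UMI of an endothelial gene had 1.54 and 5.69 Cldn5 UMIs per 100 spots in the small intestine, against 1.16 and 0.861 in the others, and 6.77 and 6.40 against 1.53 and 1.15 in the large intestine. Small intestinal sections 1 and 2 gave log2 ratios of 0.40 (-1.60 to 1.97) and 2.72 (1.71 to 3.74), so only section 2 had an interval above 0. For the large intestine they were 2.15 (1.19 to 3.07) and 2.48 (1.45 to 3.47). The spots richest in muscle genes had 17.4 and 16.8 CPM of Cldn5 in small intestinal and 27.8 and 25.4 CPM in large intestinal sections, above the 6.01 to 6.61 CPM of all spots.

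In the organoids, Cldn4 and Cldn23 were lower in the cocultured than in the control library and Cldn15 was higher by less than 2-fold. Cldn4 was 67.7 CPM in coculture and 292 CPM in control, a log2 ratio of -2.11 (-2.15 to -2.06). Cldn23 was 8.96 and 27.8 CPM, a ratio of -1.63 (-1.76 to -1.51), and Cldn15 202 and 146 CPM, a ratio of 0.47 (0.43 to 0.51). With each cell thinned to 10000 UMIs, a Cldn4 UMI was found in 21.2% of cocultured and 42.2% of control cells, a Cldn23 UMI in 8.60% and 19.6%, and a Cldn15 UMI in 74.1% and 59.3%. By the 2-fold rule 0 of 7 members were higher and 2 lower in coculture, where 1.77% and 3.60% of all compared genes were. Cldn2 (150 and 188 CPM, -0.32), Cldn12 (9.82 and 13.8 CPM, -0.49), Cldn3 (505 and 567 CPM, -0.17) and Cldn7 (1132 and 1301 CPM, -0.20) were under the threshold, and the median of all compared genes was -0.10. The libraries also differed in depth and in barcodes over the mitochondrial limit, as given above. With 1 library per condition the culture, these differences and the condition cannot be told apart.

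Cldn4 was concentrated in a few cells. In each library the 28 cells richest in Cldn4 held at least as many of its UMIs as all other cells together. For Cldn23 this took 25 cells in the control and 86 in the coculture. Among the named classes both genes were highest in the regenerative-like one, which carries markers such as Clu, Anxa1 and Ly6a seen in damaged or fetal-type epithelium, and which held 36 of 1028 cocultured and 84 of 538 control cells. In that class Cldn4 was 1089 CPM in coculture and 1634 CPM in control (-0.59), and Cldn23 58.2 and 137 CPM (-1.23). The other named classes had at most 180 CPM of Cldn4 in coculture (enteroendocrine-like cells) and 88.2 CPM in control (enterocyte-like cells). The 6 clusters that stayed unnamed, with 886 cells, are not in these classes, and some were as rich. An unnamed cluster of 28 cocultured and 25 control cells led by Gm26917 and Rmrp, with a median of 8357 UMIs per cell, had 855 and 1569 CPM of Cldn4. The same cluster had 91.7 and 120 CPM of Cldn23, which in coculture was above the regenerative-like value. Cldn4 was also 401 CPM in control cells of a shallow unnamed cluster led by Gm26917 and Lars2 (median 1602 UMIs) and 264 CPM in those of an unnamed cluster led by Tmem237 and Nupr1. Without the regenerative-like cells, the ratio of Cldn4 over all cells was -0.92 and that of Cldn23 -0.38, so that 0 members remained past the threshold.

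Within classes the condition difference varied. In enterocyte-like cells Cldn4 was 35.3 CPM in coculture and 88.2 CPM in control (-1.32) and Cldn15 274 and 179 CPM (0.61), with 0 members higher and 1 lower in coculture, where 2.38% and 1.53% of all compared genes were. This class pools a cluster of 109 cocultured and 21 control cells, where the Cldn4 ratio was -0.69 (-1.93 to 0.76), and one of 72 and 28 cells, where it was -0.58 (-0.78 to -0.37), so Cldn4 passed 2-fold in neither. In Paneth-like cells Cldn4 ran the other way, at 83.3 and 36.8 CPM (1.18), and Cldn2 was 83.5 and 193 CPM (-1.21), so 1 member was higher and 1 lower, where 1.09% and 4.39% were. In regenerative-like cells 2 of 7 were lower (Cldn23, and Cldn2 at -1.56), where 7.56% were, and in cycling-like cells 0 of 7 passed, where 1.45% did. Over the 12 clusters with at least 20 cells of each library, which leaves out the enteroendocrine-like one, Cldn15 was above its counting interval of 0 in 8 and below in 0 (range 0.02 to 0.89), Cldn4 above in 1 and below in 10 (-1.75 to 1.18), and Cldn7 above in 0 and below in 7. Over all cells, 4 of 21 genes of the wider list were lower in coculture, where 3.60% of all compared genes were: Jam2 (-5.53, with 2 cocultured UMIs set to 3), Amotl1 (-2.52), Cgnl1 (-1.84) and Ildr1 (-1.20).

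The other members were at the limit of detection in organoids. Cldn5 had 34 UMIs in the control, 82.4% of them in 1 cell, and 0 in the coculture. Cldn8 had 13 UMIs in coculture and 4 in control, and Cldn1 1 and 0.

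**Figure D5:**
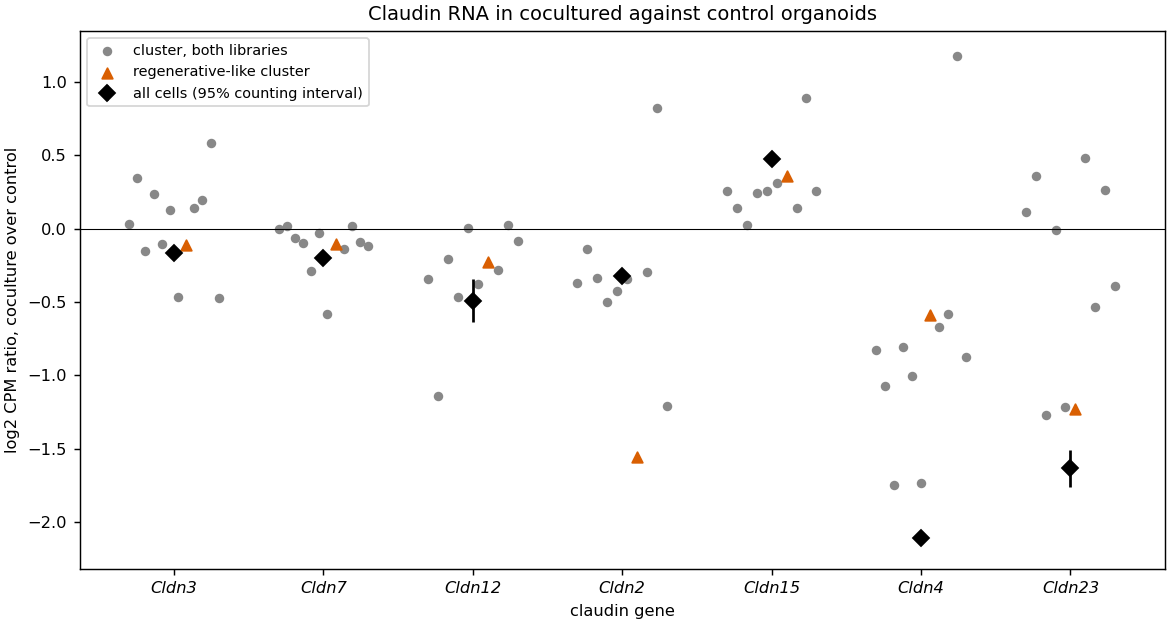
Log2 ratio of coculture over control for 7 claudins in organoids. The black diamond is all cells, with a bar for the 95% counting interval. Grey points are clusters with at least 20 cells of each library and at least 50 UMIs of the gene over both libraries. The orange triangle is the regenerative-like cluster, under the same rule. Cldn4 (-2.11) and Cldn23 (-1.63) lie below all of the plotted clusters (lowest -1.75 and -1.27), and the Cldn15 points lie at or above 0 (0.02 to 0.89).

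Across the 30 tissue classes with at least 20 cells, the genes with the most similar pattern to each member, by Pearson's r of log2(CPM + 10), give a picture of where it is found. The classes share libraries and depth, so r is a description. Cldn5 was most like Ablim3 (0.967), Flt4 (0.959), a receptor of lymphatic endothelium, and Klhl4 (0.9503). Cldn3 was most like 2610528J11Rik (0.977), Cldn7 (0.975) and the epithelial adhesion molecule Epcam (0.973), and Cldn7 like Gpa33 (0.985), Tmem54 (0.983) and 2610528J11Rik (0.982). The channel formers had different neighbours: Gpx2 (0.924), Sh3rf2 (0.916) and Cdo1 (0.912) for Cldn2, and Aldh1b1 (0.874), 2210407C18Rik (0.862) and the intestinal transcription factor Isx (0.861) for Cldn15. Cldn4 was most like Slc18a1 (0.890), a transporter of enteroendocrine granules, Ptprn2 (0.864) and the hormone secretin, Sct (0.853). Cldn8 was most like Fa2h (0.930), Hottip (0.926) and Hao2 (0.920), Cldn23 like Lypd8 (0.924), Phgr1 (0.910) and Tmem139 (0.903), and Cldn12 like Shroom3 (0.891), Atp8b1 (0.890) and Cmtm4 (0.861). Cldn1 had too few UMIs for this measure.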

How the data were processed

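The deposited values are raw UMI counts per gene and barcode in 10x matrices. Per the file headers they were made with Cell Ranger 6.0.1 (single cells) and Space Ranger 1.2.1 (Visium), and per the submitters' processing notes with genome build mm10. Steps of the authors beyond this are not given in the sources used here.

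From these counts, a cell was kept if it had 500 genes or more and no more than 20% of UMIs from mitochondrial genes (2695 and 5882 in small and large intestine, 1028 and 538 in cocultured and control organoids), after removing the highest Scrublet scores at 0.8% per 1000 cells (61, 306, 9 and 2 cells). Visium spots needed 500 UMIs. Cells were clustered per tissue library, and both organoid libraries together, on 2000 variable genes, 30 principal components and 15 neighbours with the Leiden method at resolution 1 (leidenalg 0.10.2, scanpy 1.11.5, scipy 1.17.1), without claudins, tight junction, mitochondrial, ribosomal protein, GFP and sex genes. A cluster was named from 24 marker lists where at least 3 markers were in 10% of its cells, with a log2 ratio of at least 1 over other cells. Of several such lists, the one with the highest mean ratio was taken. The name was dropped where another list held more of its 10 leading genes. It was also dropped in clusters with low UMIs and no leading gene of the list. Counts were summed per class and given as CPM with exact Poisson intervals. Ratios have exact intervals of 2 Poisson counts, and a group under 3 UMIs was set to 3. The calculation was tested on Poisson counts simulated around pooled levels with known changes. These hold no spread between cells, libraries or animals, so the test covers the arithmetic alone. UMI depth and cell number limit precision, and intervals omit variation between animals, whose number is not given in the labels. The members and gene lists were chosen with earlier results of these data known. All members are named, and from the tight junction list the 3 highest and 3 lowest called ratios or fewer of them. Alternatives were stricter and looser cell filters, doublets kept, other resolutions, scalings, a gate per cell, other spot rules, and sections left out in turn.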

Additional observations from a re-analysis of the deposited data

Results flagged for a closer look

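Results in which the samples of 1 tissue moved one way and those of the other tissue the opposite way are given here as values. None of these differences was tested. For Cldn8, the log2 ratio of crypt over surface spots was 1.58 and 2.34 in section 1 and 2 of the small intestine, from 30 and 19 UMIs in crypt spots, and -0.31 and -0.21 in those of the large intestine. For Cldn12, the log2 ratio of stem-like over absorptive cells was 1.40 in the small and -0.64 in the large intestine. For Cldn15, the same ratio was -0.94 in the small and 2.54 in the large intestine.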

How the results depend on the processing

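Of the counts of members past 2-fold, 54 of 56 alternative values were within 1.5 times the reported one. The others were 0 in place of 2 for the organoids without regenerative-like cells, and 5 in place of 3 for the crypt and surface spots of the small intestine compared as the highest and lowest of 4 equal parts. The cause was not tested. With all spots ranked, the large intestinal count was 6 in place of 4. Leaving out 1 section at a time gave 3 to 3 between tissues, 2 to 3 for small intestinal and 4 to 4 for large intestinal crypts. The rules ask for 2-fold between the nearest sections, or in every section. Leaving 1 out can thus lose a called member only through the minimum of 50 UMIs. A count that did not fall is therefore no sign of stability. No paired analysis was possible because the section numbers name technical duplicates and tie no section of 1 tissue to one of the other. Crypt and surface spots were compared within each section, with no test. Of 478 values for single genes, 338 stayed within a range set around the reported value and 140 did not. For cells this range was the counting interval, and for whole sections the span between the sections of the 2 tissues. For crypt against surface spots it joined the counting intervals of both sections. Values with 1 section left out lie within these ranges by construction, so they say nothing about stability. Those that changed side or moved by over 1.5 times and are not given above include Cldn4 (1.22) in small over large intestinal cells with the looser filter. In large intestinal epithelium over endothelium Cldn8 was 1.77 and Cldn23 1.41 with the stricter filter, and Cldn23 1.26 at resolution 0.5. In the same contrast Cldn2 was 3.03 with the looser filter, and in the small intestine Cldn23 was 2.08 with a gate per cell and Cldn4 -0.06 at resolution 0.5. Between sections, scaling without mitochondrial and ribosomal protein genes gave -1.04 for Cldn3 and -0.06 for Cldn5. In small intestinal crypts Cldn23 was -1.30 with 4 parts and -2.25, Cldn3 -1.24, Cldn7 -1.47 and Cldn12 0.57 with all spots ranked. With unnamed epithelial clusters added, chosen after seeing the data like the alternatives without Paneth-like or regenerative-like cells or the richest cell, Cldn23 was 0.40 in small over large intestinal cells in place of -0.25. Few endothelial UMIs limit the epithelial against endothelial values, and 1 library per group those of the cells.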

Other observations

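Of the 22 other claudin symbols, only Cldn14 and Cldn18 had enough UMIs in the sorted cells or organoids to be compared, and Cldn10, Cldn14 and Cldn34c1 in the sections. Cldn14, known from kidney and inner ear, was found in the large intestine, where epithelial cells had 986 UMIs (15.4 CPM) and those of the small intestine 58 UMIs (1.65 CPM), a log2 ratio of -3.22 for small over large intestine. In the small intestine 56 of the Cldn14 UMIs were in tuft-like cells (35.5 CPM, against 91.9 CPM in the tuft-like cells of the large intestine, a log2 ratio of -1.37). Enteroendocrine-like cells of the large intestine had 182 UMIs of Cldn14 (226 CPM) and those of the small intestine 1. Section counts of Cldn14 were 4 and 2 UMIs for small intestine against 233 and 318 for large intestine. Cldn18, best known from stomach and lung, had 18 UMIs in cocultured and 77 in control organoids, a log2 ratio of -3.26 (-4.09 to -2.51), and 10 and 69 of these were in regenerative-like cells. It had 0 UMIs in all 4 sections. These genes were picked out after their values were seen.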
